A study of Drosophila melanogaster with 4 samples.

Results

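Arm 3R is the right arm of the third chromosome of Drosophila melanogaster, and the positions described here are those along it at which RNA polymerase II (Pol II) was enriched in whole embryos. A region belonged to the set when its row in the whole-series list named chromosome 3R, leaving out the separate heterochromatic scaffold of that arm. This gave 894 of the 4366 regions of the list (20.5%). The study collected mixed embryos of 0 to 24 h and sequenced 4 DNA samples, of which 2 were immunoprecipitated from separate chromatin extractions (replicates 1 and 2) and 2 were input, not analysed here. The inputs carry extraction numbers of their own, 3 and 4. The labels name no strain, genotype or treatment, so no condition is known to differ and the comparison is between extractions. Replicate 1 placed 1173 regions on 3R and replicate 2 placed 1780, each list being made separately.

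Pol II transcribes the protein-coding genes. It gathers at promoters, where in Drosophila it often pauses a short way into the gene before elongating, and it also spreads over the bodies of strongly transcribed genes, so a sharp accumulation and an extended one are the usual shapes of its signal. The antibody used, CTD4H8, was raised against phosphorylated repeats of the carboxyl-terminal domain of the largest subunit, the tail that is modified as transcription proceeds. Embryos of this span range from before zygotic transcription to nearly hatching larvae and hold all embryonic tissues. A low value can therefore mean few cells with Pol II at a position or little Pol II in each, which bulk chromatin cannot tell apart. In flies 3R carries, among many other genes, the homeotic gene complexes. Positions below are on FlyBase r5.1 and count from 1 at the end of the assembled arm nearest the centromere. The annotation at hand is of genome Release 6, so no gene or sequence was attached to a position.

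Every value rests on the start, end or score of a region in the authors' deposited lists, which name the region caller PeakSeq. Whole-series regions ran to the outer ends of joined replicate regions, so their widths and most of their scores combine both replicate lists. The score has no stated unit, and its scale may change from one chromosome to another, so it was ranked within 3R alone. The lists carry no read counts, which leaves the depth unknown. With 1 list per extraction nothing could be tested over samples, and differences are given as descriptions with intervals that cover counting error only.

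By an overlap of at least 1 bp, most regions called on 3R in replicate 1 met one called in replicate 2, while many replicate 2 regions met none of replicate 1. Of the 1173 replicate 1 regions, 950 (81.0%, Wilson 95% interval 78.6% to 83.1%) shared at least 1 bp with a replicate 2 region, and 908 of the 1780 replicate 2 regions (51.0%, 48.7% to 53.3%) shared 1 bp with replicate 1. Over all chromosomes the shares were 80.0% and 49.9%, so 3R lay near the background in both directions. Requiring 50% of both regions lowered the shares on 3R to 49.9% of replicate 1 and 32.9% of replicate 2. Matched regions took up 93.2% of the length covered in replicate 1 and 68.6% of that in replicate 2.

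Each of the 894 members joined regions of both extractions and ran to their outer ends. In 834 (93.3%) a single region of each replicate was joined, in 52 several regions of replicate 1, and in 10 several of replicate 2. Replicate 2 reached both ends of 719 members and replicate 1 of 38. The joined replicate 1 stretch filled a median of 68.3% of a member's width, and the replicate 2 stretch a median of 100%. In 14 members the replicate 1 part was under 10 bp wide, against 2 for replicate 2. Within 0.0001, the deposited score of 884 members was the mean of the replicate scores, and in the other 10, which include the regions at 909993, 7047417 and 12917703, it was not.

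Scores on 3R ran from 1.42 to 9.38, with a median of 2.63 (quartiles 2.07 and 3.57). Members scored a median of 2.42 in replicate 1 and 2.73 in replicate 2. A score above 5, a limit chosen after the values were seen, was reached by 70 members, and 23 members were above 5 in both extractions. Across the 894 members replicate 1 and replicate 2 scores had a Spearman correlation of 0.55 (Pearson 0.56 on log2 scores). Both values describe positions called in both of the same 2 chromatin preparations, not independent samples. Of the 224 members in the upper 25% by replicate 1 score, 128 (57.1%) were also in the upper 25% by replicate 2 score.

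**Figure D1:**
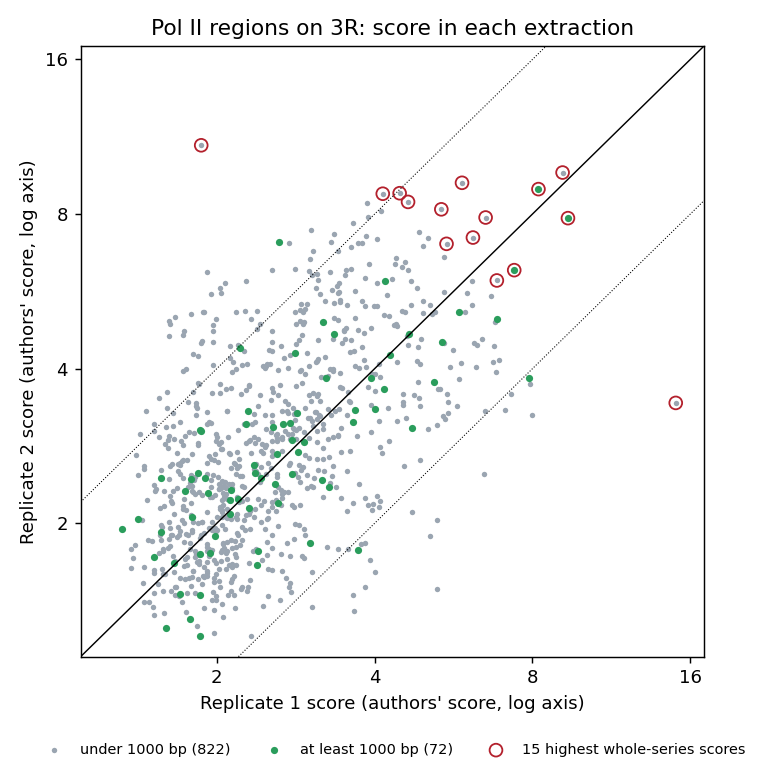
Score of each of the 894 Pol II regions on 3R in replicate 1 (x axis) and replicate 2 (y axis), both on log axes; green points are at least 1000 bp wide and red rings mark the 15 highest whole-series scores. The solid line is equality and the dotted lines mark a 2-fold difference, which 79 regions exceeded; the pair of rings far from equality are the regions at 19685170 and 20282776.

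Of the 6 highest whole-series scores on the arm, 4 lay in one short stretch about 2 Mb from its centromere-side end, though the highest score of each single extraction lay elsewhere, at 19685170 in replicate 1 and at 20282776 in replicate 2. The highest whole-series score on 3R belonged to the 624 bp region at 2060347 to 2060970, which scored 9.13 in replicate 1 and 9.64 in replicate 2 (9.38 ± 0.36, SD, n = 2). It ranked 3 among the members in replicate 1 and 2 in replicate 2. Only 254 bp further on began the region at 2061225 to 2063680, 2456 bp wide, with scores of 9.35 and 7.86. The region at 2074636 to 2076242, 1607 bp wide, scored 8.21 and 8.95 and ranked 4 in each extraction. These 3 regions scored at least 7.86 in each extraction, where the medians of all members were 2.42 in replicate 1 and 2.73 in replicate 2.

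The same stretch held 11 members within 68.9 kb, from 2060347 to 2129285, in 4 close groups. After the groups at 2060347 and 2074636 came a pair at 2085915 to 2087336, whose wider member scored 3.29 and 3.997 and whose narrower member scored 4.08 and 2.15. At the far end stood 5 regions between 2124836 and 2129285, the run with most members on 3R. Its highest member, at 2127498 to 2127975, scored 6.51 and 7.88, and its lowest, at 2129165 to 2129285, scored 2.11 and 1.66. The first 2 regions of that run scored 4.31 and 5.99 at 2124836, and 4.70 and 5.31 at 2125674. Of the 11 members, 10 were above the median score of the arm, 8 were in its upper 25%, 7 scored higher in replicate 2, and none differed more than 2-fold between extractions. The stretch held 3 of the 15 highest by replicate 1 alone, 4 of the 15 highest by replicate 2 alone, and 4 of the 23 members above 5 in both extractions. The bounds of the stretch were set after the scores were seen, so these counts describe it and test nothing.

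**Figure D2:**
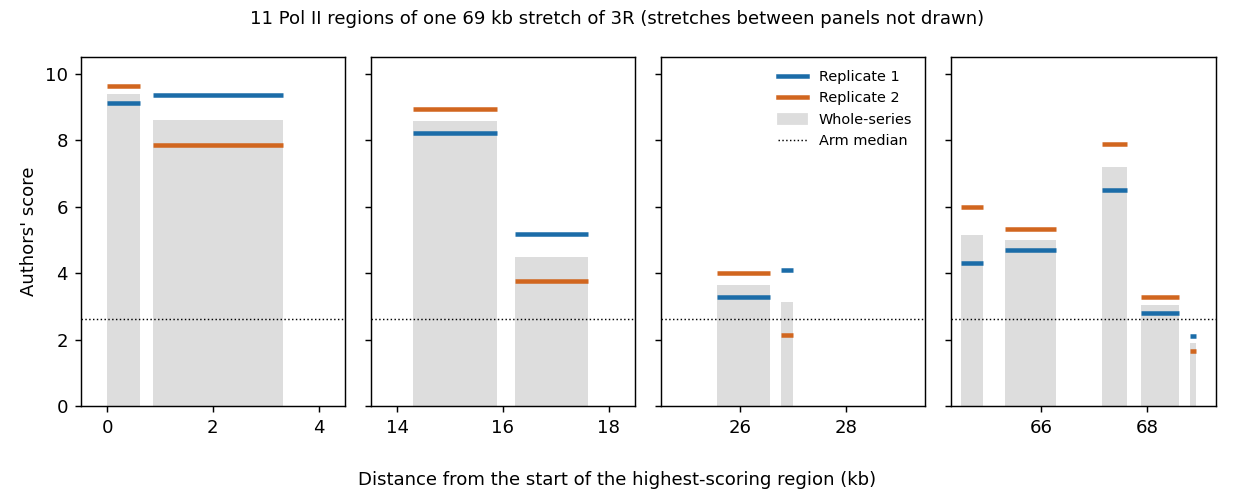
The 11 Pol II regions of the 68.9 kb stretch that holds 4 of the 6 highest scores on 3R, drawn to scale by distance in kb from the start of the highest-scoring region, with the empty parts between the 4 groups left out. Grey bars give the whole-series score over each region's width, blue and orange lines the replicate 1 and replicate 2 scores, and the dotted line the median of the arm, 2.63; 10 of the 11 bars rise above it.

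**Figure D3:**
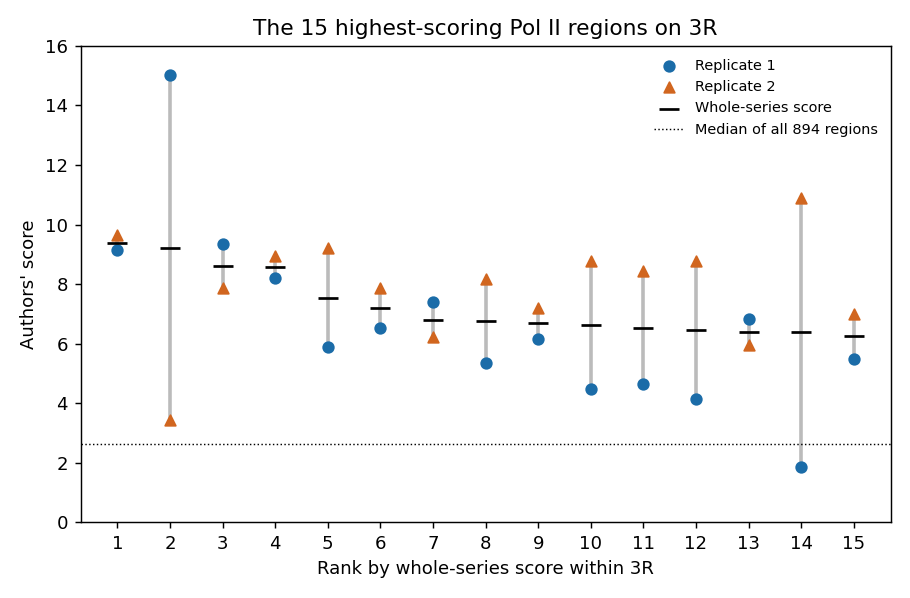
The 15 highest-scoring Pol II regions on 3R by rank (x axis), with the authors' score in replicate 1 (circles), replicate 2 (triangles) and the whole-series list (dashes). The grey line joins both extractions, and 3 regions, at ranks 2, 12 and 14, are more than 2-fold apart.

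The other 11 of the 15 highest-scoring regions were scattered between 3483905 and 25809321, each on its own with no neighbour closer than 9365 bp. The region at 17122170 to 17123975 was 1806 bp wide and scored 7.38 in replicate 1 and 6.22 in replicate 2. With the regions at 2061225 and 2074636 it was one of 3 broad regions among the 15. The narrow region at 22624679 to 22624951 scored 6.16 and 7.20, and that at 24243849 to 24244021 scored 5.49 and 7.001. The region at 19768357 to 19768927 scored 6.84 and 5.94. These 4 differed little between extractions for their height, with SDs of 0.64 to 1.07 (n = 2).

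A further 5 narrow regions, 200 to 267 bp wide, were higher in replicate 2. Replicate 1 scored 5.87 and replicate 2 scored 9.20 at 25667277 to 25667535, and the scores at 9190589 to 9190855 were 5.36 and 8.17. Scores were 4.46 and 8.78 at 21033859 to 21034058, 4.63 and 8.45 at 25809092 to 25809321, and 4.15 and 8.76 at 3483905 to 3484104. Of the 15, 11 scored higher in replicate 2 and 10 were above 5 in both extractions. The score at rank 15 was 6.24 and that at rank 16 was 6.14, so the end of the list marks no step.

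The remaining 2 of the 15 owed their place to a single extraction. The region at 19685170 to 19685518, 349 bp wide, held the highest replicate 1 score on the arm, 15.01, but scored 3.43 in replicate 2, where it ranked 287. The region at 20282776 to 20282938, 163 bp wide, held the highest replicate 2 score, 10.9, but scored 1.87 in replicate 1, where it ranked 698. Their SDs of 8.19 and 6.38 (n = 2) were close to their means of 9.22 and 6.38. Only 3 regions were among the 15 highest by each replicate alone, namely those at 2060347, 2061225 and 2074636.

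Of the 894 members, more scored higher in replicate 2 than in replicate 1. Replicate 2 over replicate 1, the score had a median log2 ratio of 0.12 (quartiles -0.22 and 0.48, SD 0.56 over the 894 regions). Of these regions 815 (91.2%) lay within 2-fold. Every member was called in both extractions, so the 223 unmatched regions of replicate 1 and 872 of replicate 2 enter none of these shares. Of the 894, 529 (59.2%, Wilson 95% interval 55.9% to 62.3%) scored higher in replicate 2, against 65.0% over all chromosomes. More than a 2-fold difference was found in 79 (8.84%, 7.15% to 10.9%), against 12.4% over all chromosomes, a background that includes the unplaced scaffolds. Among them 58 were higher in replicate 2 and 21 in replicate 1. In the lowest 25% of members by whole-series score the lean was the other way. There 95 were higher in replicate 2 and 129 in replicate 1. That score was the mean of both replicate scores in 884 members, so a grouping by it is not independent of their difference. On the other 4 large arms 63.5% to 68.3% of the regions scored higher in replicate 2, with no interval made for them. The share was thus lowest on 3R of these 5 arms by point value alone. If the scale of the score differs between chromosomes in each list, that share moves with it, which was not tested.

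The 5 largest differences in each direction were at regions no wider than 349 bp. After the region at 19685170 (log2 ratio -2.13), the lowest ratios were -1.82 at 25925151 to 25925464, -1.44 at 7392638 to 7392856, -1.43 at 1390853 to 1391038 and -1.37 at 18288733 to 18289014. At 25925151 the replicate 1 score of 5.26 came from a region 1 bp wide, and at 18288733 the same score came from one of 18 bp. At 7392638, by contrast, both extractions covered over 200 bp, with scores of 5.103 and 1.89. On the other side, after 20282776 (2.54), the highest ratios were 1.69 at 13608885 to 13609116, 1.61 at 24717433 to 24717755, 1.60 at 12326615 to 12326805 and 1.58 at 18580196 to 18580518. In these 4 the replicate 1 score was 1.62 to 1.91 and the replicate 2 score 4.88 to 6.16.

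The authors' score had its highest median on 3R in regions of intermediate width. The median whole-series score was 2.25 in the 51 regions under 150 bp, 2.48 in the 140 of 150 to 199 bp, and 3.43 in the 151 of 200 to 249 bp. It was 3.08 at 250 to 299 bp (95 regions) and then between 2.35 and 2.65 in the 4 wider classes. Among regions of 200 to 249 bp, 68 of 151 (45.0%, Wilson 95% interval 37.3% to 53.0%) were in the upper 25% of the arm by score. The share was 10.7% (6.60% to 16.9%) at 150 to 199 bp and 14.5% (9.49% to 21.5%) at 601 to 998 bp.

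In these classes of whole-series width the median score of each replicate was highest at 200 to 249 bp. Replicate 2 set both ends of most members, so the classes do not follow replicate 1's own widths. The replicate 1 median there was 2.84, against 2.20 at 150 to 199 bp and 2.30 at 601 to 998 bp. The replicate 2 median was 3.96, against 2.58 and 2.44 in the same classes. Members of 200 to 299 bp scored a median 1.34 times that of all other members, 1.20 times by replicate 1 and 1.45 times by replicate 2. The ratio was 1.29 to 1.41 on the other 4 large arms, so the pattern was not particular to 3R. In the replicates' own 3R lists, unmatched regions included, the median was 2.94 for the 212 replicate 1 regions of that width and 2.23 for the others. In replicate 2 it was 2.84 for 355 and 2.18 for the others. By own widths the excess was thus of similar size in both lists. Only 200 to 299 bp was compared there, which does not place a maximum at 200 to 249 bp. A single rank correlation over all widths misses the hump, since Spearman's rho of width with score was -0.04. The libraries were selected for fragments of 150 to 200 bp, and the part of that selection in these widths was not tested.

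**Figure D4:**
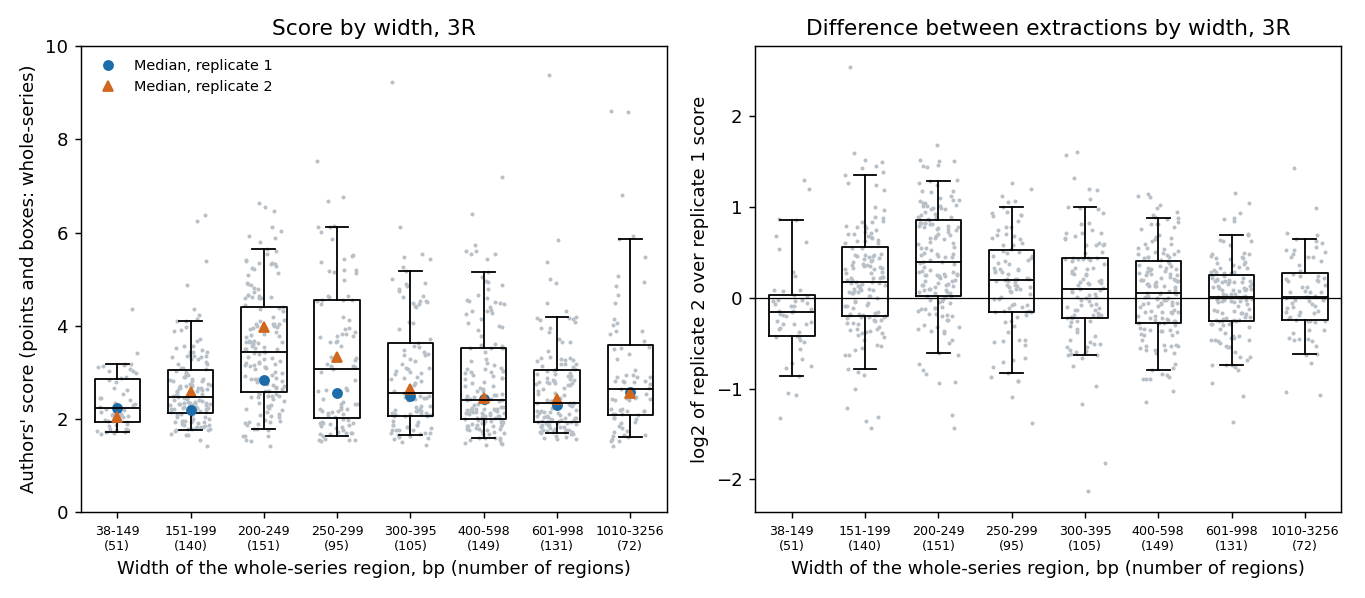
Left, whole-series score of the 894 regions on 3R in 8 width classes (points, with boxes at the quartiles, a line at the median and whiskers from the 5th to the 95th percentile), with the median replicate 1 score (circles) and replicate 2 score (triangles). Right, the log2 ratio of replicate 2 over replicate 1 score in the same classes. Scores peak at 200 to 249 bp, where replicate 2 exceeds replicate 1 most, and the spread of the ratio narrows in the widest classes.

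Extractions agreed better over the widest regions. The SD of the log2 ratio was 0.44 in each of the classes from 601 bp upwards and 0.50 at 400 to 598 bp. In narrower regions it was 0.53 to 0.62 in no steady order, and the narrowest class, under 150 bp, had the lowest of these. In the narrowest 25% of the members (38 to 209 bp) rho of the replicate scores was 0.21 over 224 regions, and in the widest 25% (573 to 3256 bp) it was 0.69 over 224. The median ratio was highest, 0.40, at 200 to 249 bp and close to 0 at 600 bp and above. Where the replicate 1 stretch filled under 50% of the member, rho was 0.38 over 257 regions, against 0.58 over the other 637.

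Extended Pol II, in regions of at least 1000 bp, made up 72 of the 894 members (8.05%, Wilson 95% interval 6.44% to 10.0%), against 7.10% over all chromosomes. These 72 held 25.9% of the length covered on the arm. Both extractions covered at least 1000 bp in 32 of them, replicate 2 alone in 33, replicate 1 alone in 4 and neither in 3. Their median score was 2.65, close to the 2.62 of the narrower members, and 18 of 72 (25%) were in the upper 25% by score. Their replicate scores had a Spearman correlation of 0.75.

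The widest region of the arm, 3256 bp at 7047417 to 7050672, was 1 region in replicate 1 (score 4.16) and 2 in replicate 2 (mean score 3.66). The region at 909993 to 913059, 3067 bp wide, joined 2 regions of each replicate, which scored a mean of 4.27 and 4.26. That at 5453900 to 5456745, 2846 bp wide, had lower scores of 3.18 and 2.43. The region at 2912124 to 2914930, 2807 bp wide, scored 6.85 and 5.01 and ranked 24 on the arm. The 2456 bp region at 2061225, described above, was the highest-scoring of the 10 widest.

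The other five of the 10 widest lay further out. At 23748482 to 23750994 the replicate 1 score was 2.79 and the replicate 2 score 2.91, and the region at 25998019 to 26000334 scored 4.18 and 5.94. At 12917703 to 12919981 a single replicate 1 region of 2140 bp (score 2.28) met 4 replicate 2 regions that covered 1250 bp (mean score 3.12). The region at 27425773 to 27427963 scored 1.85 and 3.03. The region at 11070087 to 11071930 was covered almost whole by both extractions, over 1788 and 1844 bp, yet scored 2.63 and 7.07. Near-equal coverage there went with unlike scores.

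Members were spread along the whole arm, with alternating fuller and emptier stretches. There were 32.0 regions per Mb (exact Poisson 95% interval 30.0 to 34.2) over 27.9 Mb, covering 1.45% of the arm. Over the 27 full windows of 1 Mb the median was 34 members, the lowest 16 and the highest 46. The fullest windows were 1 to 2 Mb, with 46 (33.7 to 61.4), 2 to 3 Mb and 12 to 13 Mb, each with 45 (32.8 to 60.2). The emptiest were 13 to 14 Mb, with 16 (9.15 to 26.0), 3 to 4 Mb with 18 (10.7 to 28.4) and 15 to 16 Mb with 20 (12.2 to 30.9). A very full window thus bordered a very empty one, at 3 Mb and at 13 Mb.

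Both extractions shared most high and low windows. The window from 1 to 2 Mb was also the fullest in replicate 1, with 64 regions, and in replicate 2, with 95. The windows at 3 to 4, 13 to 14 and 15 to 16 Mb held 20, 24 and 26 regions in replicate 1 and 36, 42 and 34 in replicate 2, where the window from 6 to 7 Mb was as low, with 37. Across the 27 windows the counts of both lists had a Spearman correlation of 0.87, a description over windows of the same arm. With window borders moved by 500 kb the fullest whole-series window was 11.5 to 12.5 Mb, with 47 members, and the lists no longer shared it, since replicate 1 peaked at 0.5 to 1.5 Mb, with 63 regions, and replicate 2 at 4.5 to 5.5 Mb, with 99. Which window leads therefore depends on the borders. The window from 2 to 3 Mb also had the highest median score, 3.20, and most broad regions, 6. By contrast the window from 1 to 2 Mb, the fullest, had a median score of 2.40 and no score above 4.66.

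**Figure D5:**
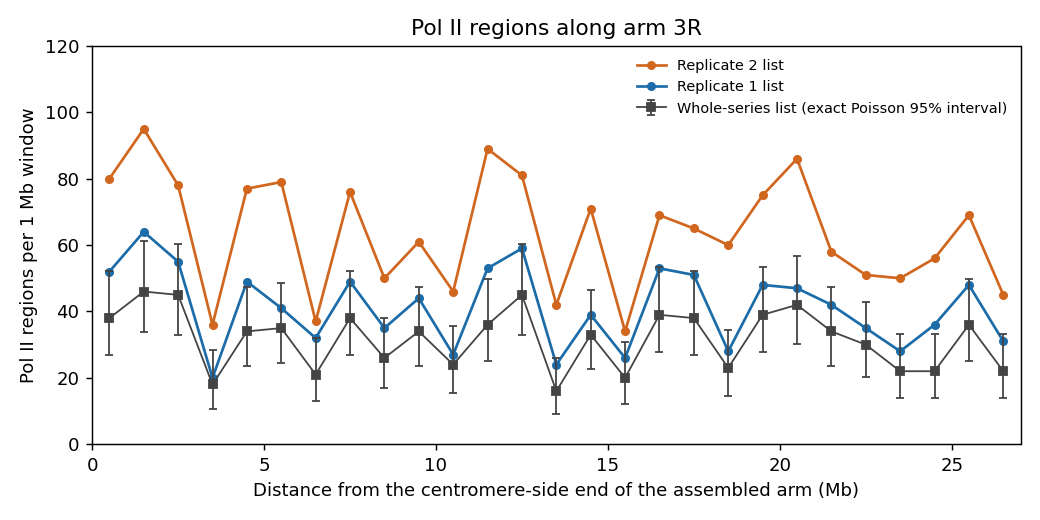
Number of Pol II regions in each full 1 Mb window of 3R (y axis) by distance in Mb from the centromere-side end of the assembled arm (x axis), for the whole-series list with exact Poisson 95% intervals and for each replicate list. The lists share most of their high and low windows, though not every step (from the window at 11 to 12 Mb to the next, replicate 2 falls from 89 to 81 while the whole-series list rises from 36 to 45), and the whole-series counts range from 16 to 46.

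On a coarser scale the segment nearest the centromere was the fullest in every list. In segments of 5 Mb from the centromere-side end there were 36.2 members per Mb in the first (31.1 to 41.9), 30.0 to 31.8 in the following 4, and 33.2 (26.9 to 40.5) in the last 2.89 Mb, and all these whole-series intervals overlapped. The first segment held 48.0 regions per Mb in replicate 1, against 37.6 to 47.0 in the others, and 73.2 in replicate 2, against 60.2 to 65.8. The median score per segment was 2.43 to 2.82. The last segment, from 25 Mb to the telomere-side end, had the widest regions, with a median of 372 bp against 273 to 320 bp in the others. There 12 of 96 were broad (12.5%, Wilson 95% interval 7.30% to 20.6%), against 6.67% to 8.29% in the other segments, with overlapping intervals. Of the 15 highest scores, 5 were in the first segment and none between 10 and 15 Mb.

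Neighbouring members were a median of 16.4 kb apart (quartiles 4.27 and 41.5 kb). At least 100 kb separated neighbours in 60 places, which together made up 30.5% of the arm. The longest such gap, 288 kb from 23873349 to 24161125, held 3 regions of replicate 1 alone and 2 of replicate 2 alone, with scores up to 2.17 and 2.92. The next were 223 kb from 16153790, 222 kb from 17959754, 221 kb from 12951158 and 210 kb from 21088172, with 0, 0, 0 and 1 regions in replicate 1 and 1, 1, 4 and 3 in replicate 2. In all, 11 of the 60 long gaps held no region in either list, the longest of them 207 kb from 3091493 to 3298947, then 184 kb from 6798248 and 173 kb from 10729827. A position outside every list is one that did not pass the caller's threshold, which does not show that Pol II was absent.

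At the other extreme, 108 of the 893 gaps (12.1%) were under 1000 bp, and these tied members into runs. A total of 705 members (78.9%) stood alone by that limit, 120 were in pairs and 69 were in 21 runs of 3 to 5. These 69 were 7.72% of the members (Wilson 95% interval 6.14% to 9.65%), against 10.2% over all chromosomes. Runs of 3 or more spanned 1168 to 5717 bp, and 8 of the 21 held a broad region. Their members' median score, 2.47, was near the 2.66 of members standing alone.

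The 5-member run at 2124836, described above, was followed by 4 runs of 4. That at 907377 to 913059 ended in the second widest region of the arm and held whole-series scores of 1.72 to 4.15. That at 27042060 to 27047776 spanned 5717 bp, had 3 broad members and scored 2.20 to 3.50. The compact run at 12048934 to 12051879 had no broad member and scored 2.995 to 3.81 in replicate 1 and 4.05 to 7.67 in replicate 2, which did not overlap. The run at 1827257 to 1830563 was weak, at 1.43 to 2.35.

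Regions found by a single extraction were narrower and scored lower than matched ones on 3R. The 223 unmatched regions of replicate 1 had a median width of 60 bp and a median score of 2.10, against 186 bp and 2.40 for the matched. The 872 unmatched regions of replicate 2 had 148 bp and 1.96, against 290 bp and 2.72. In the narrowest 25% of each list 47.6% of replicate 1 and 11.7% of replicate 2 were matched, and in the widest 25% of each list 95.6% and 73.3%. Wide regions meet an overlap of 1 bp more easily, which adds to this by construction. By score, from the lowest to the highest 25%, the share was 77.6%, 72.7%, 80.2% and 93.5% in replicate 1. In replicate 2 it was 33.3%, 35.5%, 54.4% and 80.9%.

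Some unmatched regions were near a member without touching it, though most lay at least 1000 bp away. The median gap to the nearest member was 2759 bp for replicate 1 and 4732 bp for replicate 2, and 29.1% and 23.5% were within 1000 bp. By the same limit 78.9% of the members themselves stood alone, so some nearness of this degree was also found among members. The share with a member so near was higher among the unmatched regions than among members, more so in replicate 1. The highest-scoring one on the arm was in replicate 2 at 7784204 to 7784364, 161 bp wide with a score of 9.71, and lay 7732 bp from the nearest member. In replicate 2 it was followed by regions at 25485736 (30 bp, score 7.11), 4542801 (16 bp, 7.11), 10418425 (2 bp, 6.32) and 1628013 (146 bp, 5.80). In replicate 1 the highest was at 17676950 to 17676978, 29 bp wide with a score of 6.80, then at 222466 (2 bp, 4.62), 6433721 (69 bp, 4.10), 21486099 (86 bp, 4.01) and 21060122 (4 bp, 3.99). Of these 10, 2 were over 100 bp wide, and both were in replicate 2.

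Set beside the other large arms, 3R was among the sparser ones in every list. Its 32.0 members per Mb were near the 31.1 (28.8 to 33.5) of X and the 34.8 (32.5 to 37.3) of 2L. Both intervals overlapped that of 3R. Density was higher on 3L, at 38.5 (36.0 to 41.0), and on 2R, at 41.7 (39.0 to 44.6), without overlap. In replicate 1 there were 42.1 regions per Mb (39.7 to 44.5) on 3R, against 40.6 to 54.9 on the others. The replicate 1 intervals of X (38.0 to 43.3) and 2L (42.8 to 48.4) overlapped that of 3R. In replicate 2 there were 63.8 (60.9 to 66.8), the lowest of the 5, though its interval overlapped that of X, at 67.1 (63.8 to 70.6). The median width of its members, 306.5 bp, lay between the 276.5 bp of 2L and the 308 bp of X. The share in runs of 3 or more, 7.72%, was near the 7.60% of X and below the 12.6% (10.6% to 14.8%) of 3L and the 11.8% (9.84% to 14.1%) of 2R. On 2L it was 9.88% (8.00% to 12.1%), which overlapped the 6.14% to 9.65% of 3R. Fewer runs go with a lower density, and how much of the difference that makes was not tested. The share of reads of 36 nt that can be placed on each arm was not examined.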

How the data were processed

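Pol II ChIP-seq of mixed embryos was made from 2 chromatin extractions, with single-end reads of 36 nt on an Illumina Genome Analyzer II, per the labels. The deposited lists name FlyBase r5.1 and PeakSeq, per the file headers and source column. The score deposited for each region has no stated unit. Aligner, read filters, control and threshold: not given in the sources used here. Neither read depth nor its effect on list length is known.

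Rows of chromosome 3R were taken from each list. Overlap was at least 1 bp, and a member's replicate score was the mean over the replicate regions it overlaps. Arm length was the furthest region end. Windows used midpoints. Intervals are Wilson or exact Poisson at 95%. Named regions are the 15 highest and 10 widest, the 5 most extreme ratios each way, the 5 highest unmatched per replicate, the 5 longest gaps, the 5 largest runs, and the 3 fullest and emptiest windows; others were chosen after their values were seen. The members and rules were chosen with earlier results of these data known. Routines were tested on simulated data. Work was done in Python 3.11.15 with SciPy 1.17.1, pandas 2.3.3, NumPy 2.4.6 and Matplotlib 3.10.9.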

Additional observations from a re-analysis of the deposited data

How the results depend on the processing

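Of 28 alternatives, 16 moved a value by more than its tolerance and 12 by less. A count or density could change by up to 1.5 times, a share, rho or median ratio within its 95% interval and a median width by 1 SD between replicates, so 42.1 regions per Mb in place of 32.0, or 64 in place of 46 in the fullest window, fall under the 12. Requiring 50% of both regions gave 49.9% of replicate 1 and 32.9% of replicate 2 regions matched, and the upper 50% of each list by score gave 71.4% and 46.3%. The upper 50% of the members has 16.02 regions per Mb by construction. With either replicate list alone there were 42.1 to 63.8 regions per Mb, a median width of 165 to 221 bp, 51 to 105 runs, 34 to 68 broad regions and 64 to 95 regions in the fullest window. Those lists hold unmatched regions and lack the outer ends that members take. Width in place of score gave rho = 0.67. Runs numbered 9 with gaps under 500 bp and 34 under 2000 bp, and 9 regions were at least 2000 bp wide. The stretch near 2 Mb, bounded after the whole-series scores were seen, held 3 to 4 of the 15 highest scores by either replicate alone. Most whole-series scores are means of both replicate scores, so that alternative is not an independent check. That alternative, and members made of 1 region per replicate, were added after the data were seen. No paired analysis was possible because nothing was compared between groups.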

Other observations

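Many replicate scores on 3R recur exactly. Of the 1173 replicate 1 regions, 621 share their score with another region of the arm, as do 705 of the 1780 in replicate 2, and the commonest value is held by 26 and 23 regions. Of the regions under 10 bp, 44 of 50 in replicate 1 and 50 of 54 in replicate 2 share theirs. Most regions that share a score are wider, since those under 10 bp make up only 44 of the 621 and 50 of the 705. Ranks by a replicate score therefore hold many ties, among narrow and wider regions alike, such as the 5.26 at both 25925151 and 18288733. In the whole-series list only 2 of the 894 scores are shared.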
